A study of Mus musculus with 7 samples.

Results

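The *Rhox* genes (reproductive homeobox genes on the X chromosome) were examined in whole testes of *Glis3* mutant and wild-type (WT) mouse embryos at E14.5. The members were chosen by symbol from the table of RefSeq genes, as *Rhox1*, *Rhox4b*, *Rhox5*, *Rhox6*, *Rhox8*, *Rhox9*, *Rhox10* and *Rhox13*, which makes 8 of 34 rows with a *Rhox* symbol and 8 of 24739 gene rows in all. RNA-Seq libraries were made from total RNA depleted of ribosomal RNA, with 1 pair of testes from 1 embryo in each, for 3 WT and 4 mutant embryos, all on a C57BL/6 background. Mutant embryos were homozygous for the *Glis3* zf5 allele, in which part of exon 4 and of the introns beside it is deleted in every cell of the body, so germ cells and somatic cells carried the same mutation. Levels were given as FPKM (fragments divided by the length of the transcript and scaled between libraries by Cuffnorm), so that levels of different genes could be set side by side.

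RHOX proteins are transcription factors with a homeodomain. Their genes lie in 1 block on the X chromosome, of which a male embryo has a single copy, and they arose from each other by duplication, the *Rhox2*, *Rhox3* and *Rhox4* genes several times over. They are known for expression in the testis, ovary and placenta. *Rhox5* (also called *Pem*), the founding member, is known as a gene of Sertoli cells, the somatic cells that enclose germ cells in testis cords, and *Rhox8* is also known from Sertoli cells. *Rhox6*, *Rhox9*, *Rhox10* and *Rhox13* are known from germ cells, *Rhox10* from the prospermatogonia that give rise to spermatogonial stem cells and *Rhox13* from male germ cells of the fetus and of the adult. These classes rest mostly on work outside of the E14.5 testis, and *Rhox1* and *Rhox4b* were put in neither class.

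The block of 34 protein-coding *Rhox* genes spanned 916 kb of chromosome X (GRCm38, 37213804 to 38129967). The members are given here from one end of it to the other with the coordinates of the deposited gene models (mm10). *Rhox1* (gene ID 385343) lay at 37213805 to 37222258 on the minus strand, *Rhox4b* (57737) at 37432494 to 37437278 on the plus strand and *Rhox5* (18617) at 37754608 to 37808878 on the plus strand. *Rhox6* (19202) lay at 37827055 to 37829857 on the plus strand, *Rhox8* (434768) at 37874776 to 37878944 on the minus strand and *Rhox9* (104384) at 37899097 to 37901770 on the minus strand. *Rhox10* (434769) lay at 38066475 to 38071688 and *Rhox13* (73614) at 38120840 to 38129966, both on the plus strand. No other gene of GENCODE M21 overlapped a member, whereas in RefSeq the non-coding gene *Gm39506* (38121576 to 38158422) overlapped *Rhox13*. Reads were counted without strand, so reads of *Gm39506* and *Rhox13* from shared bases cannot be told apart.

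Among the members, *Rhox6* and *Rhox9* stood apart by sequence, and their coding sequences are shown first because their levels are read against each other below. Both coding sequences were 681 bases long, and 619 of 682 aligned columns (90.8%) were identical, against 41.7% to 58.2% for every other pair of members. The longest identical stretch was 161 bases, from coding base 167 to 327 in both genes, and lay within 1 exon at chrX:37827450-37827610 on the plus strand for *Rhox6* and at chrX:37901167-37901327 on the minus strand for *Rhox9* (GRCm38). It is printed once, in lower case throughout, since no base differs.
Rhox6 and Rhox9: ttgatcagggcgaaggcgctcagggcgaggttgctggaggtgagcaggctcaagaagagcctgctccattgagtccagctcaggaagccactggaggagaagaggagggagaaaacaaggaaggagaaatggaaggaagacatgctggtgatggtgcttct

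The 100-base stretch that differed most, from coding base 574 to 673, spans 1 intron in each gene and held 80 identical and 20 differing bases. Capitals mark the bases that differ.
Rhox6: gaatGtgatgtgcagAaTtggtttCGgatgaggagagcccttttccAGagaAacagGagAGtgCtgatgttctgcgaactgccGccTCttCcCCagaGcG
Rhox9: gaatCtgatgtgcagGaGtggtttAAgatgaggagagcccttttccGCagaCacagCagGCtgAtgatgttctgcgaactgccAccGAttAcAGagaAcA

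Of all 100-base windows of their transcripts, 62 were identical between *Rhox6* and *Rhox9*, 6.81% of those of *Rhox6* and 7.92% of those of *Rhox9*, so most of each transcript could be told apart by a fragment of that length. *Rhox1*, *Rhox5*, *Rhox8*, *Rhox10* and *Rhox13* shared no such window with another *Rhox* gene. *Rhox4b* shared 82.9% of its windows with 7 other *Rhox4* genes, and the reads of these copies cannot be assigned with certainty to 1 of them.

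*Glis3*, the gene disrupted in the mutants, had 7.63 and 6.89 FPKM in WT replicates 1 and 2. The library labelled wild-type replicate 3 had 2.91, while the 4 mutants ranged from 2.66 to 3.86. The library labelled wild-type replicate 3 therefore lay at the mutant level for the targeted gene, and results of *Rhox* genes that it moved are also given without it. Gene-level FPKM does not give the genotype, since the allele lacks only part of the gene and the paper detected *Glis3* mainly in germ cells. For *Rhox5* and *Stra8* this library lay on the WT side, and for the germ cell markers it lay with the mutants, as given below. Why it differed was not tested. The relative depth read from the lowest FPKM values ranged from 0.776 to 0.93 of WT replicate 1, while the total number of fragments is unknown. Marker lists were used to check the tissue. All 12 germ cell markers, with summed FPKM of 615 to 1450 in WT and 496 to 675 in mutant libraries, and all 11 Sertoli cell markers, with 1194 to 1432 and 1471 to 1634, passed the filter on low values. Markers of trophoblast, the placental lineage in which many *Rhox* genes are known, summed to at most 0.0591 FPKM in WT and 0.125 in mutant libraries, with *Prl3d1* listed at 0 in all 7.

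*Rhox5* was by far the most abundant member and the one with the smallest p. It held 73.8% to 79.5% of the summed FPKM of all *Rhox* rows in each library, and its mean in mutant testes was 45.7% of that in WT testes. WT replicates 1 and 2 had 104 and 81 FPKM, the library labelled wild-type replicate 3 had 88.9, and the mutants had 47.1, 26.2, 51.6 and 42.1. Every library labelled WT was above every mutant library. WT testes averaged 91.3 ± 11.7 (SD, n = 3) and mutant testes 41.7 ± 11.1 (SD, n = 4). On the log2(FPKM + 0.5) scale this was a fold change of -1.16 with a standard error of 0.21. Limma, fitted across the 13988 genes whose mean reached 0.5 FPKM, gave an unadjusted p of 0.000509 and a Benjamini-Hochberg adjusted p of 0.133, which is not past the threshold of 0.05. The two-sided exact permutation test gave p = 0.0286, the smallest that 3 against 4 libraries allow. The log2 fold change was -1.17 when the library labelled wild-type replicate 3 was left out, with an adjusted p from limma of 0.043, past the threshold. Over all alternatives run the adjusted p ranged from 0.043 to 0.352. In whole testes, fewer cells of a type and less RNA per cell cannot be told apart, which holds for every gene below.

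**Figure D1:**
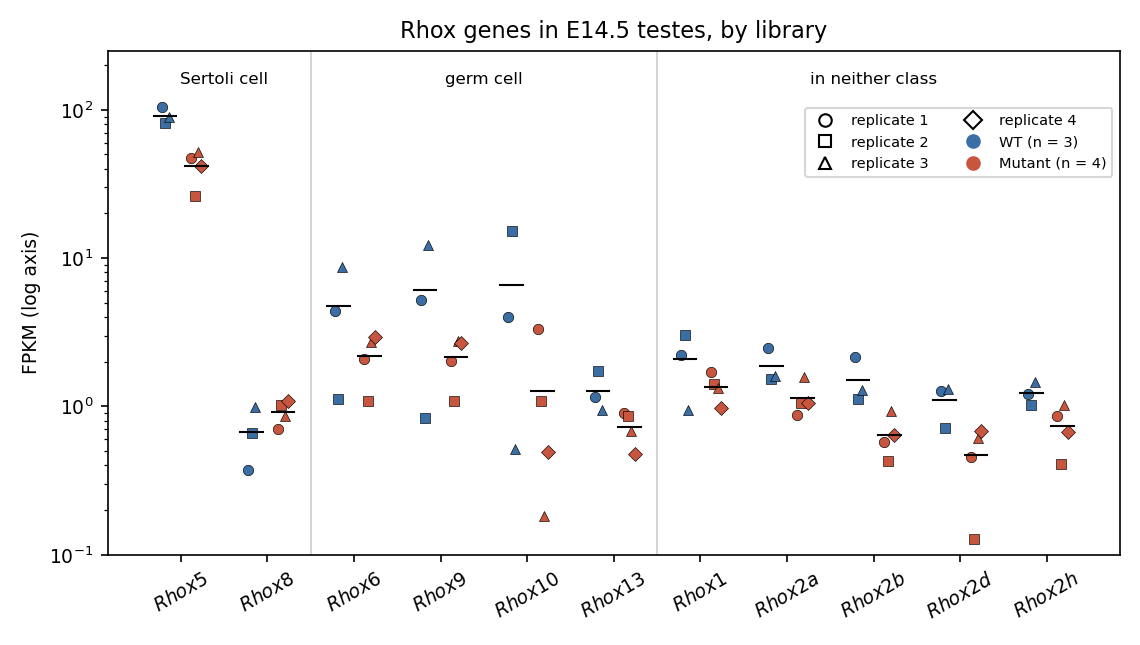
FPKM (log axis) of the 7 members that passed the filter and of 4 *Rhox2* genes in each library; symbols mark replicate numbers, colours the groups and horizontal lines the group means (WT, n = 3; mutant, n = 4). *Rhox5* is the only gene near 100 FPKM and its groups do not overlap, whereas the libraries labelled WT spread widely for *Rhox6*, *Rhox9* and *Rhox10*.

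*Rhox8*, the other member known from Sertoli cells, was low, and its groups overlapped. Its FPKM came to 0.371, 0.658 and 0.994 in the libraries labelled WT and 0.71, 1.02, 0.865 and 1.09 in the mutants. In FPKM, the library labelled wild-type replicate 3 lay inside the mutant range, and WT replicates 1 and 2 lay below every mutant. WT testes averaged 0.674 ± 0.312 (SD, n = 3) and mutant testes 0.922 ± 0.17 (SD, n = 4), with 0.30 ± 0.20 (standard error) as the log2 fold change (limma, adjusted p = 0.46; exact permutation test, p = 0.229). Leaving out WT replicate 1 gave 0.10, and the value was 0.49 (limma, adjusted p = 0.151) when the library labelled wild-type replicate 3 was left out.

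Among the members known from germ cells, *Rhox13* was lower in every mutant library, and *Rhox6*, *Rhox9* and *Rhox10* varied more within the libraries labelled WT than between the groups. *Rhox13* had 1.15 and 1.73 FPKM in WT replicates 1 and 2. The library labelled wild-type replicate 3 had 0.941 and the mutants had 0.9, 0.861, 0.678 and 0.48. The groups did not overlap, but the library labelled wild-type replicate 3 was close to the highest mutant. The means of 1.27 ± 0.41 (SD, n = 3) and 0.73 ± 0.192 (SD, n = 4) gave -0.52 ± 0.19 (standard error) as the log2 fold change (limma, adjusted p = 0.241; exact permutation test, p = 0.0286). This scale understates the change of genes with such low FPKM, and the log2 fold change was -0.72 with a pseudocount of 0.1. Leaving out WT replicate 2 gave -0.34, and the value was -0.66 when the library labelled wild-type replicate 3 was left out.

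*Rhox10* had the widest range of all members for its level. It had 4.03 and 15.2 FPKM in WT replicates 1 and 2. The library labelled wild-type replicate 3 had 0.513, while the mutants had 3.33, 1.08, 0.183 and 0.493. The highest value was in WT replicate 2, and the library labelled wild-type replicate 3 lay among the lower mutants. WT testes averaged 6.58 ± 7.67 (SD, n = 3) and mutant testes 1.27 ± 1.42 (SD, n = 4), with -1.55 ± 0.89 (standard error) as the log2 fold change (limma, adjusted p = 0.406; exact permutation test, p = 0.229). This value moved to -2.57 (limma, adjusted p = 0.0817) when the library labelled wild-type replicate 3 was left out and to -0.59 when WT replicate 2 was.

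*Rhox6* and *Rhox9*, the near-identical pair, ran in the opposite order to *Rhox10* among the libraries labelled WT. *Rhox6* had 4.42, 1.13 and 8.68 FPKM in the libraries labelled WT replicates 1, 2 and 3 and 2.08, 1.08, 2.7 and 2.94 in the mutants. *Rhox9* had 5.19, 0.835 and 12.3 in the former and 2.04, 1.08, 2.76 and 2.69 in the latter. Both were highest in the library labelled wild-type replicate 3, in which *Rhox10* was low, and lowest or near lowest in WT replicate 2, in which *Rhox10* was highest. *Rhox6* averaged 4.75 ± 3.78 (SD, n = 3) in WT and 2.2 ± 0.831 (SD, n = 4) in mutant testes, and *Rhox9* 6.1 ± 5.78 (SD, n = 3) and 2.14 ± 0.776 (SD, n = 4). The log2 fold changes were -0.70 (standard error 0.53) for *Rhox6* and -0.85 (standard error 0.66) for *Rhox9*, with adjusted p of 0.53 and 0.536 from limma, and the exact permutation test gave p = 0.4 for each. They were -0.13 and -0.11 when the library labelled wild-type replicate 3 was left out, but -1.38 and -1.75 without WT replicate 2. The ratio of *Rhox9* to *Rhox6* FPKM was 1.17, 0.737 and 1.42 in the libraries labelled WT and between 0.915 and 1.02 in the mutants. With shared windows making up a small part of each transcript, how far reads were split between the pair was not tested.

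**Figure D2:**
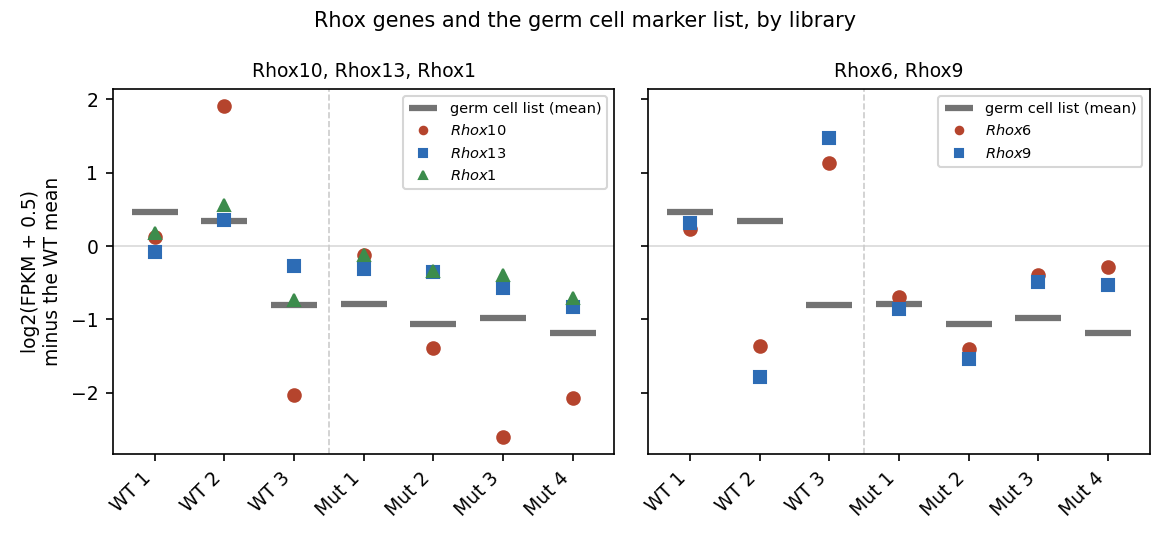
Level of each gene in each library as log2(FPKM + 0.5) minus the mean of the 3 libraries labelled WT; grey bars show the mean of 12 germ cell marker genes on the same scale, and the dashed line separates WT from mutant (Mut) libraries. In WT 2 and WT 3, *Rhox6* and *Rhox9* stand on the opposite side of *Rhox10*, *Rhox1* and the germ cell list.

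*Rhox1* and *Rhox4b*, in neither class, were low. *Rhox1* had 2.23 and 3.05 FPKM in WT replicates 1 and 2. The library labelled wild-type replicate 3 had 0.943, while the mutants had 1.71, 1.41, 1.34 and 0.978. Both WT replicates 1 and 2 were above every mutant, and the library labelled wild-type replicate 3 was below every mutant. The averages were 2.07 ± 1.06 (SD, n = 3) and 1.36 ± 0.3 (SD, n = 4). Limma gave -0.39 ± 0.29 (standard error) as the log2 fold change, with an adjusted p of 0.518 (exact permutation test, p = 0.343). With the library labelled wild-type replicate 3 left out it gave -0.76 (limma, adjusted p = 0.0609), and leaving out WT replicate 2 gave -0.11. *Rhox4b* was listed at 0.0417 and 0.0472 FPKM in WT replicates 1 and 2 and at 0 in the other 5 libraries, which is too low to compare. The ratio of its values in WT replicates 1 and 2, 0.883, is close to the relative depth of 0.887 between them, as the same whole number of fragments in both would give.

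Over the 8 members, 7 passed the filter, 6 of the 7 had a log2 fold change below 0, and the median was -0.70, against a median of 0.01 and 47.9% below 0 over all genes tested. None of the 7 was past the threshold of limma, as against 0.00715% of all genes (1 of 13988). *Rhox5* and *Rhox13* had an unadjusted p under 0.05 (both lower in the mutants; background 8.79% lower, 8.21% higher and 17% in either direction). The same 2 had groups that did not overlap, with the mutants lower, as 7.59% of all genes did, and no member had mutants higher without overlap, as 7.31% of all genes did. Without the library labelled wild-type replicate 3, 1 member, *Rhox5*, was past the threshold, and so were 5.15% of all genes (3.99% lower). By level, *Rhox5* came first in both groups and did not overlap with the next gene. In WT testes the order went on with *Rhox10*, *Rhox9*, *Rhox6*, *Rhox1*, *Rhox13* and *Rhox8*, and in mutant testes with *Rhox6*, *Rhox9*, *Rhox1*, *Rhox10*, *Rhox8* and *Rhox13*. The ranges of all neighbours in these 2 orders after *Rhox5* overlapped, until *Rhox4b* at the end.

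**Figure D3:**
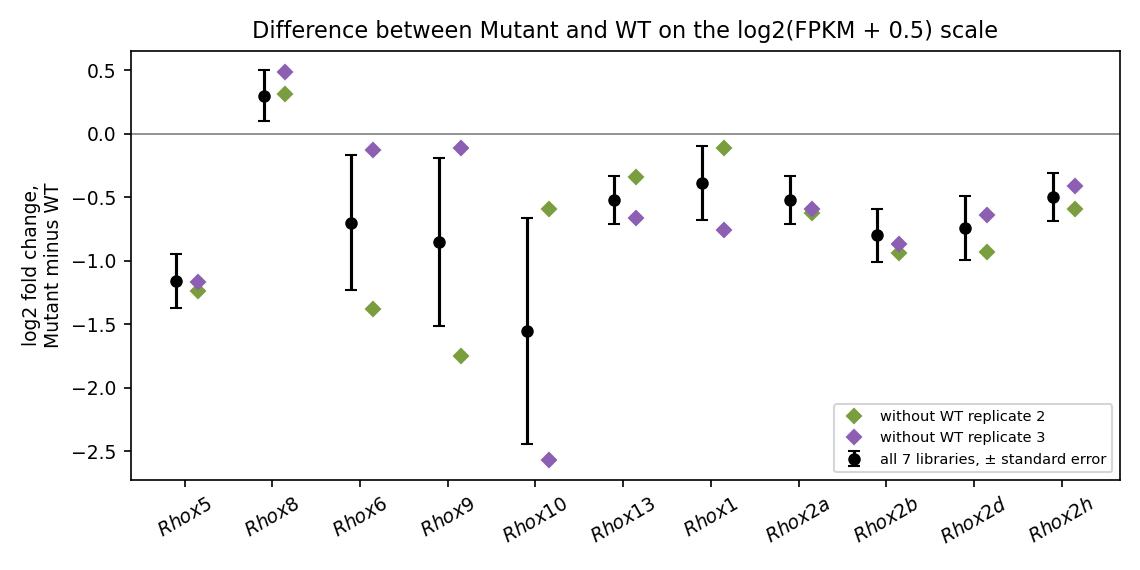
Log2 fold change (mutant minus WT) from limma on the log2(FPKM + 0.5) scale, with bars of 1 standard error, for all 7 libraries, and also without WT replicate 2 and without the library labelled wild-type replicate 3. *Rhox5* stays between -1.24 and -1.16, while *Rhox6*, *Rhox9* and *Rhox10* move by more than their standard error with either library left out, and *Rhox8* alone lies above 0.

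The germ cell members were compared with the Sertoli cell members in each library as the difference of their mean log2(FPKM + 0.5). The mean of *Rhox6*, *Rhox9*, *Rhox10* and *Rhox13* was 1.93, 1.56 and 1.86 in the libraries labelled WT and 1.28, 0.61, 0.77 and 0.85 in the mutants. The mean of *Rhox5* and *Rhox8* was 3.25, 3.28 and 3.53 in the former and 2.92, 2.67, 3.08 and 3.04 in the latter. Both class means were lower in every mutant library, and the drop of the Sertoli cell members came from *Rhox5* alone. Across the libraries, *Rhox5* had Pearson's r of 0.75 with the mean of the germ cell markers and -0.52 with that of the Sertoli cell markers. The classes were taken from earlier work, so their difference need not be one of germ cell against somatic RNA. Which cells held the RNA was not tested. Germ cell minus Sertoli cell members was -1.57 ± 0.21 (SD, n = 3) in WT and -2.05 ± 0.29 (SD, n = 4) in mutant testes, on this scale a difference of -0.48 with groups that overlapped. The difference was -0.53 when the library labelled wild-type replicate 3 was left out, -0.72 and -0.32 with pseudocounts of 0.1 and 1, and -0.25 with *Rhox1* and *Rhox4b* added to the germ cell members. The mean of the germ cell members hides opposite orders of its genes, since *Rhox10* was the highest of them in WT replicate 2, and *Rhox9* and *Rhox6* were in the library labelled wild-type replicate 3.

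The markers of both cell types were set beside these results. All 12 germ cell markers, among them *Ddx4*, *Dazl* and *Pou5f1*, had a log2 fold change below 0 (median -0.96), against 47.9% of all genes. Of these, 10 had an unadjusted p under 0.05 from limma (8.79% of all genes, mutant lower), and none was past the threshold. The list was chosen with earlier results known and holds *Ddx4*, *Nanos3*, *Mael* and *Tdrd1*, which the paper reports as reduced in these mutants. It leaves out the germ cell genes *Boll*, *Hormad1* and *Lefty2*, which the paper reports as unchanged. The library labelled wild-type replicate 3 stood with the mutants for this list, at a mean log2(FPKM + 0.5) of 4.06 against 5.33 and 5.21 in WT replicates 1 and 2 and 3.68 to 4.08 in the mutants. Without it, the median was -1.29 and 10 of the 12 were past the threshold of limma, as were 5.15% of all genes (3.99% lower). Leaving out a library that was low for this list favours that outcome, so the count is a description only. All 11 Sertoli cell markers, among them *Sox9* and *Amh*, had a log2 fold change above 0 (median 0.24). Of these, 3 had an unadjusted p under 0.05 from limma (8.21% of all genes, mutant higher), and none was past the threshold. Taken as log2(FPKM + 0.5) minus the mean of the germ cell list in the same library, *Rhox5* was 1.38, 1.13 and 2.42 in the libraries labelled WT and 1.49, 0.94, 1.81 and 1.73 in the mutants. The groups overlapped and differed by -0.15 (exact permutation test, p = 0.743), or by 0.24 without the library labelled wild-type replicate 3. Taken against the mean of the Sertoli cell list, *Rhox5* was 1.69, 1.40 and 1.34 in the former and 0.37, -0.40, 0.37 and 0.18 in the latter. All mutants were below all libraries labelled WT, a difference of -1.35 (exact permutation test, p = 0.0286), and of -1.42 without the library labelled wild-type replicate 3. Which cells held the *Rhox5* RNA, and the part of the germ cell RNA in its difference, was not tested.

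Relative to the germ cell list, the other members had differences above 0 apart from *Rhox10*. *Rhox1* was -3.88, -3.39 and -3.53 in the libraries labelled WT and -2.94, -2.86, -3.01 and -3.12 in the mutants. All mutants were higher relative to the list, by 0.62 on average (exact permutation test, p = 0.0286), although *Rhox1* itself had a log2 fold change of -0.39. A gene that is lower in the mutants by less than the list comes out above 0 on this measure. It therefore shows no rise of the gene itself. Against *Dazl* alone in place of the list the difference was 0.47 (exact permutation test, p = 0.286), and against *Ddx4* alone 0.70 (exact permutation test, p = 0.0286). *Rhox8* differed by 1.31 (p = 0.0571), *Rhox13* by 0.49 (p = 0.143), *Rhox6* by 0.31 (p = 0.771), *Rhox9* by 0.15 (p = 0.857) and *Rhox10* by -0.54 (p = 0.6), all by the exact permutation test and all with overlapping groups. Without the library labelled wild-type replicate 3 the differences were 0.65 for *Rhox1*, 1.90 for *Rhox8*, 0.75 for *Rhox13*, 1.28 for *Rhox6*, 1.29 for *Rhox9* and -1.16 for *Rhox10*. For *Rhox13* leaving out WT replicate 1 gave 0.22 (exact permutation test, p = 0.467), and *Ddx4* alone in place of the list gave 0.57 (exact permutation test, p = 0.0286). For *Rhox8* it was 1.39 against *Ddx4* alone and 1.16 against *Dazl* alone (exact permutation test, p = 0.0286 for each). Relative to the Sertoli cell list, *Rhox13* was lower in every mutant library (-0.71; exact permutation test, p = 0.0286), and *Rhox8* differed by 0.11 (exact permutation test, p = 0.629). These differences were -0.90 and 0.25 without the library labelled wild-type replicate 3.

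**Figure D4:**
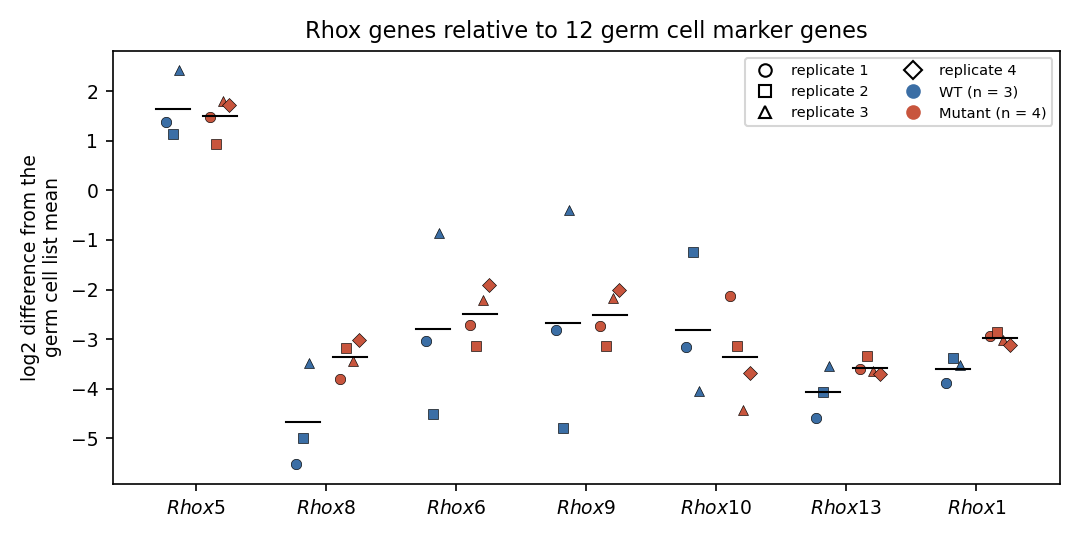
Log2(FPKM + 0.5) of each member minus the mean of 12 germ cell marker genes in the same library; symbols mark replicate numbers and horizontal lines the group means (WT, n = 3; mutant, n = 4). The groups overlap for *Rhox5*, which was separated by group as FPKM. They do not overlap for *Rhox1*, where all 4 mutants lie above the libraries labelled WT. All 12 marker genes had a log2 fold change below 0 themselves.

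Across the 7 libraries *Rhox6* and *Rhox9* varied together, as did *Rhox1*, *Rhox10* and *Rhox13*, while *Rhox5* and *Rhox8* followed neither group, given as Pearson's r of log2(FPKM + 0.5) and as a description only, since the values share libraries and the group difference. *Rhox6* and *Rhox9* had r = 0.99 with each other and -0.03 and -0.04 with the germ cell list. *Rhox10* had r = 0.93 with *Rhox1*, 0.87 with *Rhox13* and -0.43 with *Rhox6*, and *Rhox1*, *Rhox10* and *Rhox13* had 0.82 to 0.86 with the germ cell list. *Rhox5* had r = 0.75 with the same list and 0.40 to 0.59 with *Rhox6*, *Rhox9*, *Rhox10* and *Rhox13*. *Rhox8* had r = -0.88 with the list, -0.04 with *Rhox6* and -0.66 with *Rhox10*. Over the 6 libraries without the one labelled wild-type replicate 3, r was 0.99 for *Rhox6* and *Rhox9*, 0.93 for *Rhox10* with *Rhox1* and with *Rhox13*, and 0.89 for *Rhox5* with the germ cell list. Of all genes tested, *Rhox9* was the gene most like *Rhox6* (r = 0.994), followed by *Pinx1* and *Trp53*, and after *Rhox6* the genes most like *Rhox9* were *Slc6a14* and *Rnf4*. The genes most like *Rhox5* were *Rps4l* (r = 0.990), *Ttll1* and *Pwp1*. Their groups did not overlap, which picking genes by likeness to *Rhox5* favours, since its own groups did not. *Tktl1*, *Zcchc7* and *Dusp26* were most like *Rhox10* (r of at least 0.993), *Trappc11*, *Fam46d* and *Prkcq* most like *Rhox13*, and *Abca6*, *Tpt1* and *Hist1h2bc* most like *Rhox8*.

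The upstream sequences of *Rhox1*, *Rhox10* and *Rhox13* are shown because these 3 genes varied together across the libraries. Each is the 250 bases before the RefSeq start (GRCm38.p6), with CpG sites, the bases at which DNA is methylated, in capitals. They lie at chrX:37222259-37222508 on the minus strand for *Rhox1*, chrX:38066225-38066474 on the plus strand for *Rhox10* and chrX:38120590-38120839 on the plus strand for *Rhox13*.
Rhox1: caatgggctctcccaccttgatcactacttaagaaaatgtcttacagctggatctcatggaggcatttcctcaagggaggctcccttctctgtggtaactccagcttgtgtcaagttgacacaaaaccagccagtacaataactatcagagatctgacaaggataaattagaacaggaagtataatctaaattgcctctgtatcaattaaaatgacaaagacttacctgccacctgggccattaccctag
Rhox10: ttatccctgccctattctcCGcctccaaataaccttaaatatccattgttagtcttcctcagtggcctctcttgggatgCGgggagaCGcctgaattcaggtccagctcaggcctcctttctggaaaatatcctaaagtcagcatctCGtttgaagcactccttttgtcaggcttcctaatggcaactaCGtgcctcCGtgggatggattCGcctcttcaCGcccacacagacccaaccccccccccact
Rhox13: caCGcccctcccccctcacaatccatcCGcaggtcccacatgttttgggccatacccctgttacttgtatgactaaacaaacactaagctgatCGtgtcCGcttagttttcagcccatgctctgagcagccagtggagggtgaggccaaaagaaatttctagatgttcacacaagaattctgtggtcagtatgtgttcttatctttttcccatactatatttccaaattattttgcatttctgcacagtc

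They held 0, 8 and 4 CpG sites, against a median of 6 over 32851 promoters and 4.5 over the 28 *Rhox* promoters with an entry. *Rhox4b* and *Rhox5* also had an entry, with 4 CpG sites each. The *Rhox5* entry belongs to its distal start at 37754608, while the GENCODE transcripts of *Rhox5* start at 37804842 or later, and gene-level FPKM does not separate the starts. Likewise, the *Rhox13* entry belongs to its RefSeq start at 38120840, while its GENCODE transcript starts further downstream at 38121219. The letters TGGGGGGT, the core that GLIS proteins are known to bind, were searched on both strands from 250 bases before to 50 bases after the start. They were found in 0 of the 5 member promoters and in 1.53% of all promoters. GATA motifs (the letters AGATAA, or the same with T first, G last or both, on either strand) were found in the *Rhox1* and *Rhox13* promoters and in 29.8% of all promoters.

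Within the block, 5 of 28 *Rhox* promoters (17.9%) held TGGGGGGT, all of them of *Rhox2* genes, which are near-identical copies and count as 1 observation. The 30 bases that start at the shared letters gaattgt are shown for the 7 *Rhox2* promoters with an entry, with the core in capitals where present. They lie in GRCm38.p6 at chrX:37244969-37244998 for *Rhox2a*, chrX:37412060-37412089 for *Rhox2b*, chrX:37453636-37453665 for *Rhox2c*, chrX:37493398-37493427 for *Rhox2d* and chrX:37530445-37530474 for *Rhox2e* on the plus strand, and at chrX:37643448-37643477 for *Rhox2g* and chrX:37673271-37673300 for *Rhox2h* on the minus strand. The first base of the core lay 16 bases before the start of *Rhox2a*, *Rhox2c* and *Rhox2e*.
Rhox2a: gaattgtTGGGGGGTgtaacagtgaataag
Rhox2b: gaattgtTGGGGGGTgtaacagtgaataag
Rhox2c: gaattgtTGGGGGGTgtaacggtgaataag
Rhox2d: gaattgtTGGGGGGTgtaacagtgaataac
Rhox2e: gaattgtTGGGGGGTgtaacagtgaataag
Rhox2g: gaattgttgagaggtgtaacagtgaataac
Rhox2h: gaattgttggggactgtaacagtgaataac

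The *Rhox2* genes supplied the only other rows above the filter. Of 26 further *Rhox* rows, *Rhox2a*, *Rhox2b*, *Rhox2d* and *Rhox2h* had a mean of at least 0.5 FPKM, 11 others had a mean of at most 0.393, and 11 were listed at 0 in all libraries; no *Rhox3* or *Rhox4* row was above 0.129 FPKM in a library. *Rhox2b* had 2.14, 1.12 and 1.29 FPKM in the libraries labelled WT and 0.572, 0.431, 0.933 and 0.638 in the mutants. All mutants were lower, with -0.80 ± 0.21 (standard error) as the log2 fold change (limma, adjusted p = 0.176; exact permutation test, p = 0.0286). *Rhox2d* (-0.74; adjusted p = 0.211) and *Rhox2h* (-0.50; adjusted p = 0.247) were also lower without overlap, and *Rhox2a* (-0.52; adjusted p = 0.23) overlapped, all from limma. Of all genes tested, 7.59% were lower without overlap. As near-identical copies, these rows do not count as separate observations. Without the library labelled wild-type replicate 3 the log2 fold changes were -0.87 for *Rhox2b*, -0.64 for *Rhox2d*, -0.41 for *Rhox2h* and -0.59 for *Rhox2a*. *Rhox2a*, *Rhox2b* and *Rhox2d* hold the core shown above and *Rhox2h* does not. Under the filter, *Rhox2c* and *Rhox2e* hold it, with mutant means at 90.3% and 21.1% of WT. *Rhox2g*, also under the filter, does not hold it and was at 36.3%. A link between the core and these differences was not tested. Since reads of such copies can be split between rows, their sum was also taken. It was 9.11, 5.28 and 7.18 FPKM in the libraries labelled WT and 3.79, 2.31, 5.58 and 3.67 in the mutants, on average 7.19 ± 1.91 (SD, n = 3) against 3.84 ± 1.35 (SD, n = 4), with 1 mutant above the lowest WT library (exact permutation test, p = 0.0857, or 0.133 with the library labelled wild-type replicate 3 left out).

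Genes known to regulate *Rhox* genes or to depend on them were read from a list of 14, of which 12 passed the filter. None was past the threshold of limma, and 1 had an unadjusted p under 0.05, against 17% of all genes. The log2 fold change was below 0 for 6, above 0 for 5 and -0.00 after rounding for *Dnmt3b*. *Dnmt3b*, a DNA methyltransferase known to silence the *Rhox* block, had 3.91 ± 0.562 FPKM (SD, n = 3) in WT and 3.89 ± 0.455 (SD, n = 4) in mutant testes. *Nanos2*, an RNA-binding factor of male germ cells, had 16.2, 20.1 and 1.06 FPKM in the libraries labelled WT and 9.63, 4.27, 2.02 and 1.81 in the mutants, with the same libraries high and low as for *Rhox10* (log2 fold change -0.99; adjusted p = 0.598 from limma). *Stra8*, the retinoic acid target needed for entry into meiosis, had 1.08, 0.601 and 0.0911 FPKM in the libraries labelled WT and 2.06, 1.96, 1.4 and 1.98 in the mutants. All mutants were higher, with a log2 fold change of 1.21 (adjusted p = 0.17 from limma; exact permutation test, p = 0.0286), the opposite direction to *Rhox13*.

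The genes beside the block were read next. Of the 10 nearest genes on each side, 13 passed the filter, with log2 fold changes from -0.21 to 0.35 and a median of 0.02, 6 of them below 0 and none past the threshold of limma (3 with an unadjusted p under 0.05, against 17% of all genes). Of the 20, the groups did not overlap for *Nkap*, *Cul4b* and *Gm9*, lower in the mutants, and for *Sept6*, *Ndufa1* and *Lamp2*, higher, against 7.59% and 7.31% of all genes tested. *Gm9*, which lies next to *Rhox1* and was under the filter, had 0.464 ± 0.0627 FPKM (SD, n = 3) in WT and 0.253 ± 0.063 (SD, n = 4) in mutant testes, 54.5% of WT (exact permutation test, p = 0.0286).

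Reads of retrotransposon loci, counted by the authors apart from FPKM, gave a further readout of transcription in the block. Of 898 LINE, SINE and LTR loci in it, 4 had a mean of at least 1 read and were tested by the quasi-likelihood test of edgeR, and 0 were past the threshold of 0.1 (background 0.0807% of 464695 loci; 1 of the 4 with an unadjusted p under 0.05; 0 of the 4 past the threshold with DESeq2). That locus, an ID4_ element at chrX:37808413-37808485 inside *Rhox5* and outside its annotated exons, had 13, 12 and 7 reads in the libraries labelled WT and 5, 2, 3 and 3 in the mutants (log2 fold change -1.41; adjusted p = 0.753). Every library labelled WT was above every mutant library, as for *Rhox5* FPKM. A PB1D10 element in the same gene (chrX:37806865-37806980) had 14, 9 and 2 reads in the former and 5, 2, 6 and 1 in the latter (log2 fold change -0.94; adjusted p = 0.98), and the groups overlapped. A B1_Mur2 element in *Rhox8* and a B3A element in *Rhox1* had at most 4 reads in a library.

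Summed over both loci of the *Rhox5* transcripts, the reads came to 4.29 ± 1.94 CPM (SD, n = 3) in WT and 1.86 ± 0.899 (SD, n = 4) in mutant testes, a log2 ratio of -1.21 (exact permutation test, p = 0.114). The 2 loci lie within the gene whose FPKM they are set beside, but outside its annotated exons. They are a further count from the same gene, and whether their reads came from the same RNA was not tested. Over the whole block the sum was 11.9 ± 4.15 CPM (SD, n = 3) and 13.1 ± 3.95 (SD, n = 4), from 28 to 61 reads per library (exact permutation test, p = 0.629). Outside the *Rhox5* transcripts (896 loci) it was 7.58 ± 2.54 CPM (SD, n = 3) in WT and 11.3 ± 3.6 (SD, n = 4) in mutant testes. That was a log2 ratio of 0.57, opposite in direction to the *Rhox5* loci, with overlapping groups (exact permutation test, p = 0.171). No locus lay between the distal start of *Rhox5* and the first GENCODE start.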

How the data were processed

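Testis RNA from 7 E14.5 embryos was sequenced (3 WT, 4 mutant; 1 pair of testes each). The authors aligned reads to mm10 (TopHat2 2.0.12 and Cuffdiff 2.1.1 are named in the submitters' processing notes), allowing up to 10 hits per read, and made FPKM values on RefSeq gene models with Cuffquant and Cuffnorm. For the second table the authors made counts of uniquely mapped reads per RepeatMasker LINE, SINE or LTR locus with HTSeq-count; the deposited values are unscaled and sum to 3454317 to 4670830 per library. No value column was left out.

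Groups were taken from the labels; the header of both tables runs the names of WT replicate 3 and mutant replicate 1 together, and these were read as 2 columns. Genes whose mean reached 0.5 FPKM were tested, as log2(FPKM + 0.5), by limma 3.58.1 (trend, two-sided, Benjamini-Hochberg, threshold 0.05) in R 4.3.3; loci whose mean reached 1 read were tested with edgeR 4.0.16 (TMM, quasi-likelihood, threshold 0.1). Single values were compared by two-sided exact permutation over the 35 ways to assign 3 of 7 libraries, with a smallest p of 0.0286. Cuffdiff needs aligned reads and was not run. All members were named, with other *Rhox* rows above the filter, listed regulators and nearest genes whose groups did not overlap (*Dnmt3b* and *Nanos2* in any case; 1 further listed gene is not reported here), the 3 genes most like each of 6 members, and the loci with the most reads. Marker lists for Leydig cells, mesonephros, endothelium and macrophages were also counted: all 5 Leydig cell genes were above 0 (median log2 fold change 0.47), and the summed FPKM in WT and mutant libraries was 1596 to 2658 and 2498 to 3073 for Leydig cells, 2.1 to 3.29 and 1.23 to 2.23 for mesonephros, 54.5 to 64.1 and 55.5 to 60.3 for endothelium, and 8.72 to 10 and 9.61 to 11.5 for macrophages. Members, lists and searched motifs were chosen with earlier results of these data known. The block was taken from the first to the last protein-coding *Rhox* gene, as the distant pseudogene *Rhox7-ps1* would take in other genes; the wider block was an alternative chosen after seeing the data, as were the comparison with the Sertoli cell list and the alternatives for *Rhox2* genes. Upstream sequences came from RefSeq (GRCm38.p6), coding sequences and windows from the GENCODE M21 transcripts, aligned with Biopython 1.88. Scripts were tested on simulated data. Alternatives were other pseudocounts, filters, scalings, limma without a trend or with array weights, DESeq2 1.42.0 for loci, leaving out 1 library at a time and a replicate block.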

Additional observations from a re-analysis of the deposited data

How the results depend on the processing

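None of the log2 fold changes of the 7 tested members and 4 *Rhox2* genes changed sign under any alternative run, and with 1 library left out at a time 0 to 1 members were past the threshold, the 1 being *Rhox5* without the library labelled wild-type replicate 3. Deviations of same-numbered libraries from their group means correlated weakly (r = 0.198, -0.177 and 0.229). So few values cannot exclude a pairing of the samples, and the main fit took the libraries as unpaired. With the replicate block, which leaves mutant replicate 4 without a partner, 0 members were called, and *Rhox5* had a log2 fold change of -1.18 (adjusted p = 0.352 from limma). In that setting 205 loci were called in place of 375, 0 of them in the block of *Rhox* genes. Values relative to the germ cell list turned direction with 1 library left out for *Rhox5* (-0.41 to 0.24; above 0 without the library labelled wild-type replicate 3 or mutant replicate 2), *Rhox6* (-0.55 to 1.28) and *Rhox10* (-1.16 to 0.24), each without WT replicate 2, and *Rhox9* (-0.91 to 1.29; below 0 without WT replicate 2 or mutant replicate 4); relative to the Sertoli cell list, *Rhox8* ranged from -0.08 (without WT replicate 1) to 0.25. With 1 library left out, exact permutation tests cannot give a p below 0.0667 (WT) or 0.1 (mutant). The log2 ratio of the summed loci of the block, 0.15, was -0.72 when taken over the loci tested, -0.03 with the wider block and, leaving out 1 library at a time, from -0.08 to 0.43 (-0.08 without the library labelled wild-type replicate 3). The cause of these changes was not tested. A filter at a mean of 10 reads left no locus of the block to test. Members other than *Rhox5* were mostly under 10 FPKM, and how many fragments lay behind a value is unknown.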
